A study of Equus caballus with 12 samples.

Results

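The splicing factor and RNA helicase genes of in vitro matured horse oocytes were described by family. They were the genes whose Ensembl identifier is paired, in the gene and gene set lists that accompany the study, with a name that starts with SRSF, SF3A, SF3B, HNRNP, PRPF, SNRP, LSM, DDX, DHX or RBM. This gave 65 genes in 10 families, of 2569 genes with a name in those files and 11425 genes in all. The gene sheets are ordered by the fold change of the study and the copies used here stop before their end. Names were therefore more often at hand for genes that were lower in vitrified than in fresh oocytes, and a shared direction of the 65 genes against fresh oocytes is no result.

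RNA was sequenced from pools of denuded oocytes with a polar body, with a mean of 23 oocytes per pool. Fresh oocytes (FR, 5 samples) were matured in vitro and never vitrified. VMAT oocytes (3 samples) were matured in vitro, then vitrified, warmed and cultured again, and VIM oocytes (4 samples, named VGV in the labels) were vitrified immature, with corona radiata cells, then warmed and matured in vitro. All ovaries came from a slaughterhouse, so each pool mixed oocytes of unnamed mares, and only oocytes that survived and reached metaphase II were sequenced. Nothing in the labels says that the pools of a group came from separate collection days. The tests thus rest on the spread between these pools, which may be partly technical. In the main test, this spread is drawn towards a trend over all genes tested.

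Splicing joins exons in the nucleus. The U1, U2, U4, U5 and U6 small nuclear ribonucleoproteins (snRNPs) recognize the splice sites and build the spliceosome, SR proteins (SRSF) and heterogeneous nuclear ribonucleoproteins (HNRNP) bind the pre-mRNA and guide the choice of sites, and DEAD-box (DDX) and DEAH-box (DHX) helicases rearrange RNA and protein at each step. A fully grown oocyte hardly transcribes. It lives on stored maternal mRNA, which RNA-binding proteins such as those of the LSM14 group keep silent or release for translation, so the mRNA of a splicing factor in a metaphase II oocyte is mostly a stored message.

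Values are normalized counts: the counts of UMI-processed reads per gene, divided by the authors by 1 size factor per sample. They come from a library kit that reads the 3′ end of transcripts, and levels of different genes are not compared here. Between 1636620 (VMAT replicate 1) and 12166950 reads (VMAT replicate 2) lay on genes, and the other samples had 2123138 to 4715119. A normalized count of 10, used below as the limit of a low value, stood for 3.21 reads in VMAT replicate 1, for 79.8 reads in VMAT replicate 2 and for 6.14 to 19.8 reads elsewhere. VMAT replicates 1 and 2 thus stand apart by depth, and their values are given wherever a result rests on them. Of 19 oocyte markers, 11 had a name in the files, and their summed normalized count was 12659 to 20383 in VIM, 13799 to 29217 in VMAT and 16768 to 21608 in FR. Most of this sum came from DPPA3 (4501 to 16505) and BTG4 (3177 to 8872). The single markers differed: GDF9 was at 463 or more in every sample, whereas TLE6 and ASTL were below 10 in samples of every group. Of 17 markers of cumulus and granulosa cells only HAS2, the enzyme that makes hyaluronan, had a name, and it was at 641 to 2144 in VIM, 254 to 1755 in VMAT and 462 to 1239 in FR. Its part in any result was not tested. No blood cell marker of the list of 5 had a name. In bulk samples, fewer cells of a type and less RNA per cell cannot be told apart.

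The 65 genes were parted by whether any sample was low. A normalized count of at least 10 in all 12 samples was found for 25 genes, and 40 genes, called patchy here, were below 10 in at least 1 sample. The 25 genes were not all even. Their highest over lowest ratio ran from 1.79 to 107, with a median of 9.29, and it was under 10 for 13 of them. Of the 780 values, 150 were below 10, 86 were between 10 and 100, and 544 were at 100 or more. Over all 65 genes, most values were thus at 100 normalized counts or more, and fewer lay between 10 and 100 than below 10. The share of genes that were low in no sample was 38.5% for the 65 genes, 34.8% for all 2569 genes with a name and 9.72% for all 11425 genes. Low values occurred in every group, and 20 genes had a low value in VIM, in VMAT and in FR alike. A low value in vitrified samples and in no FR sample was seen for 12 genes, and the opposite for 4 genes. A value of 10 or more was reached in all samples of a group by 31 genes in VIM, 37 in VMAT and 37 in FR. These counts by group were not set beside the share over all genes. The groups differ in number of samples and in depth, and names were more often at hand for genes lower in vitrified oocytes. The counts are therefore no result about vitrification.

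**Figure D1:**
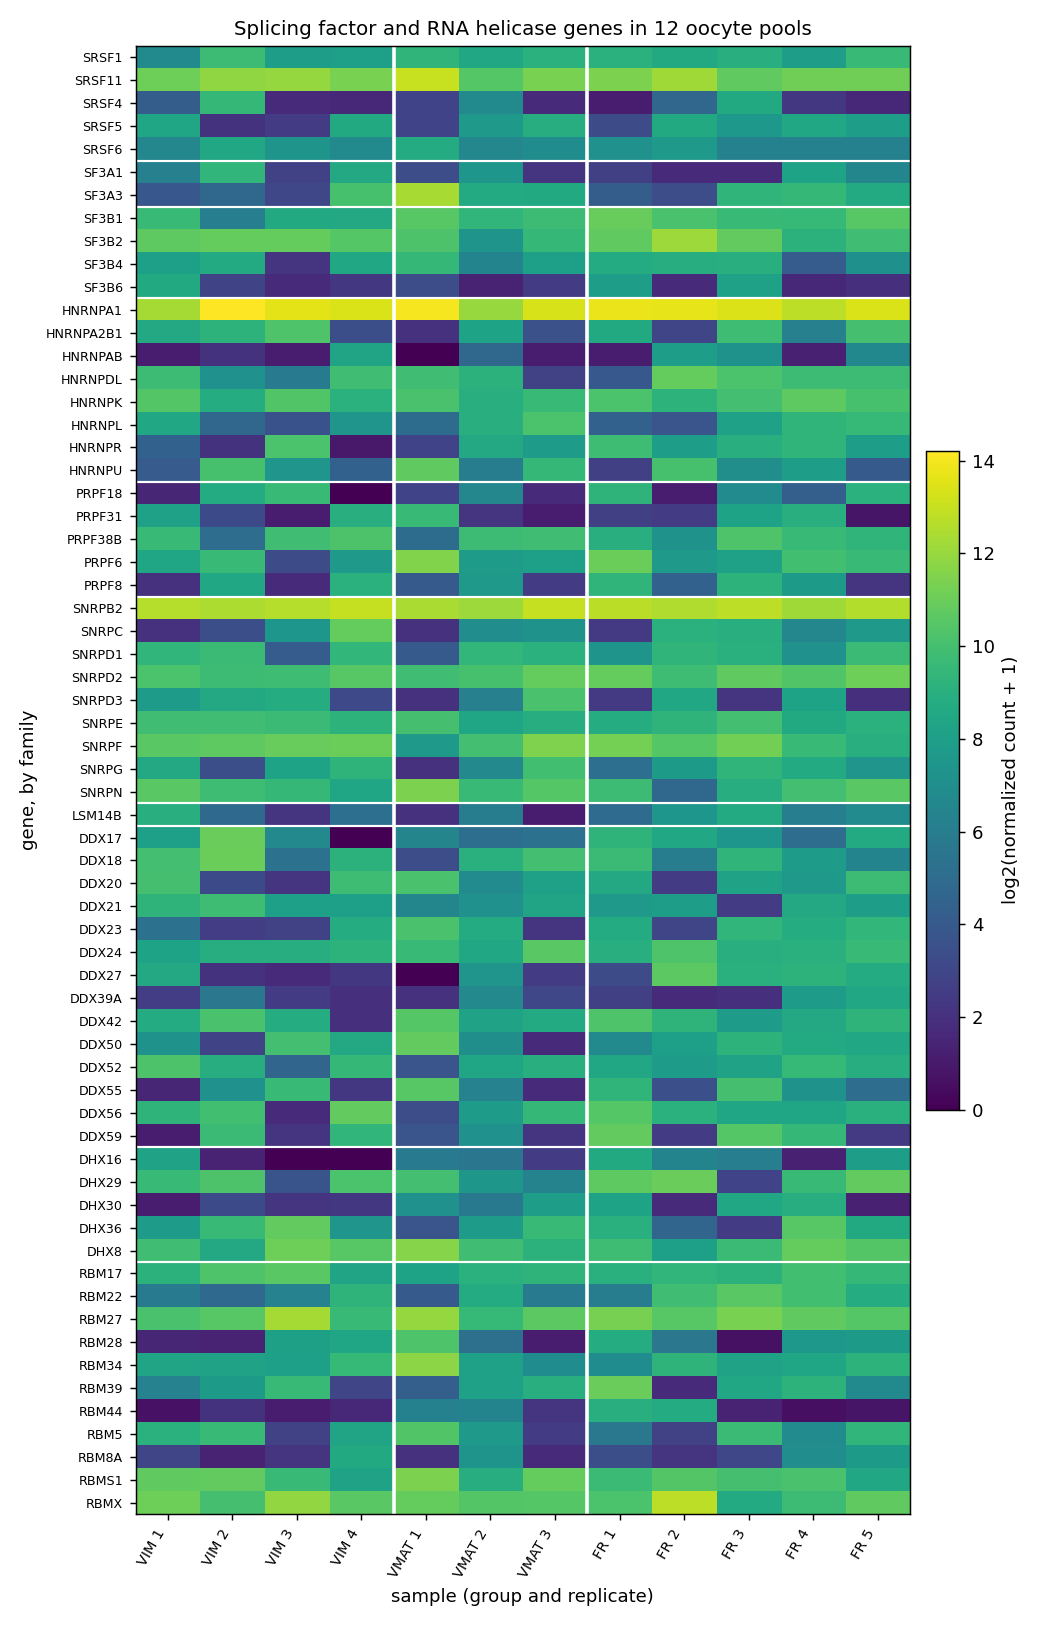
Heatmap of log2(normalized count + 1) for 64 of the 65 genes (rows, by family, separated by white lines) in the 12 samples (columns: 4 VIM, 3 VMAT, 5 FR). Bright rows such as HNRNPA1 and SNRPB2 are even across samples, whereas most DDX, DHX and PRPF rows hold dark cells (150 of the 780 values of the 65 genes are below 10) in samples of every group.

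The number of the 65 genes below 10 was 11, 16, 22 and 15 in the VIM replicates 1 to 4, 17, 2 and 20 in the VMAT replicates and 11, 14, 9, 5 and 8 in the FR replicates. The deepest sample, VMAT replicate 2, had the fewest low genes, and the 7 samples with 1636620 to 2964979 reads on genes had 11 to 22. Depth therefore moved with the number of low genes, and its part in the difference between groups was not tested. The share of all reads on genes that fell on the 65 genes was 1.80% to 1.96% in VIM, 1.74% to 2.04% in VMAT and 2.08% to 2.43% in FR. All 2569 genes with a name showed the same separation, with 70.7% to 71.5%, 69.2% to 72.4% and 73.2% to 79.3% of the reads. As a share of the reads on genes with a name, the 65 genes took 2.55% to 2.74% in VIM, 2.40% to 2.90% in VMAT and 2.67% to 3.27% in FR, and these ranges overlapped.

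**Figure D2:**
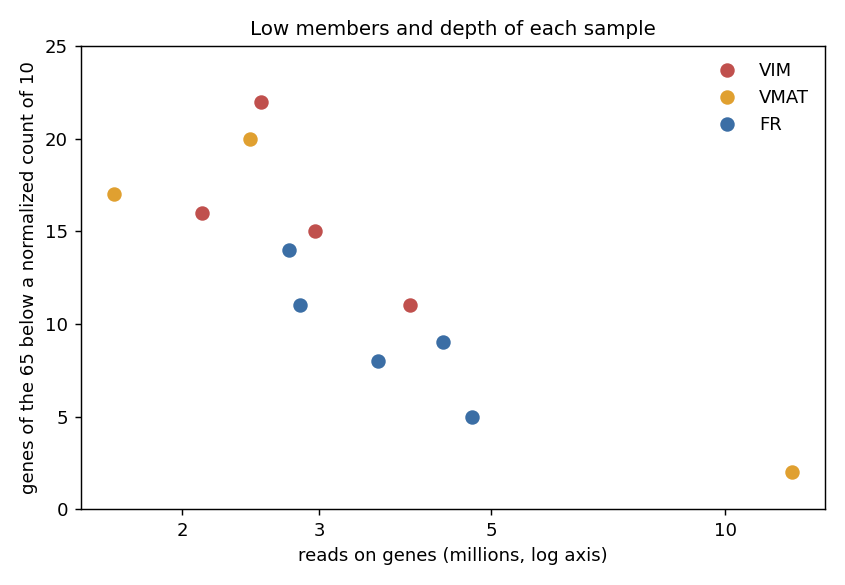
Number of the 65 genes below a normalized count of 10 (vertical axis) against depth as reads on genes (horizontal log axis), 1 point per sample, coloured by group. VMAT replicate 2, with 12166950 reads, has 2 low genes, and the 7 shallowest samples, with 1636620 to 2964979 reads, have 11 to 22.

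Among the snRNP proteins, SNRPB2 (ENSECAG00000018407), the B'' protein of the U2 snRNP, was the steadiest of all 65 genes by normalized count. This rank rests on the deposited size factors and was not examined under other scalings. Its normalized counts were 6379, 5586, 6474 and 7889 in VIM, 5479.9, 4432 and 7915 in VMAT, and 6860.3, 5782, 7266, 4758 and 6087 in FR. The groups overlapped, the highest sample was 1.79 times the lowest, and the coefficient of variation over the 12 samples was 17.9%, against a median of 101% over the 65 genes. Its log2 fold change against FR was 0.10 for VIM (95% interval -0.53 to 0.74) and -0.08 for VMAT (-1.08 to 0.93). The Sm proteins form a ring on the snRNAs, and SNRPD2 and SNRPE of this ring were nearly as even, with highest over lowest ratios of 2.45 and 3.24. SNRPF was at 508 to 2850 in all samples but VMAT replicate 1, which held 202. The same VMAT sample also held SNRPD1 at 15.6, SNRPD3 at 3.11 and SNRPG at 3.11, each the lowest value of its gene or close to it. SNRPD3 was patchy in every group, at 7.82 to 452 in VIM, 3.11 to 1109.5 in VMAT and 2.86 to 353 in FR. SNRPC, the U1 protein that helps to recognize the 5′ splice site, had the widest range of this family. It was at 3.07, 9.78, 177 and 1865 in VIM, 3.11, 127 and 152 in VMAT, and 4.31, 538, 473, 95.9 and 205 in FR. Each group held a sample under 5 and a sample over 150. SNRPN, the Sm protein made from an imprinted gene that shares its transcript with SNURF, was at 335 to 1537 in VIM, 787 to 2682 in VMAT and 26.3 to 1499.7 in FR. HNRNPA1 and several SNRP genes have near-identical processed copies in mammalian genomes, so their values are uncertain where reads are shared with a copy, which the counting tool, RSEM, assigns by a model.

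The SF3A and SF3B proteins belong to the U2 snRNP and hold the branch site. SF3B1 (ENSECAG00000021657), which clamps the branch point, was at 789, 66.8, 394 and 383 in VIM, 1472, 658 and 869 in VMAT, and 1926, 1144, 801, 725 and 1452 in FR. Only VIM replicate 1 lay within the range of FR, and the other VIM samples were below every FR and VMAT sample. SF3B2 (ENSECAG00000024461) was at 1647, 1850.0, 1843 and 1390.5 in VIM, 1198, 164 and 705 in VMAT, and 1740.1, 4506, 1779, 568 and 925 in FR. VIM lay above VMAT without overlap, and FR overlapped with both. SF3A3 (ENSECAG00000017333) was at 13.5, 26.1, 7.23 and 1097 in VIM, 5150.1, 412 and 399.7 in VMAT, and 17.3, 9.15, 629, 715 and 408 in FR. It was under 100 in 3 VIM and 2 FR samples and in no VMAT sample. SF3B4 was at 264 to 416 in 3 VIM samples and at 3.62 in VIM replicate 3, and at 16.6 to 499.9 in FR. SF3B6, the protein at the branch point adenosine, was at or above 10 in only 3 samples: 392 in VIM replicate 1, 239 in FR replicate 1 and 275 in FR replicate 3.

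The PRPF proteins work in the U4/U6.U5 tri-snRNP and at later steps. PRPF18 (ENSECAG00000006997), a factor of the second splicing step, was at 1.84, 422, 775 and 0 in VIM, 6.22, 94.3 and 2.36 in VMAT, and 616, 1.14, 115, 18.7 and 533 in FR. PRPF8, the protein at the heart of the spliceosome, was below 10 in VIM replicates 1 and 3, VMAT replicate 3 and FR replicate 5, and between 15.6 and 629.6 in the others. PRPF31 was below 10 in 7 samples, PRPF6 in 1 and PRPF38B in none.

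Of the 5 SR protein genes, 3 were low in no sample: SRSF1, SRSF6 and SRSF11. SRSF11 (ENSECAG00000017756) was at 2122, 3762, 4063 and 2618 in VIM, 8377, 1421 and 2573 in VMAT, and 2756, 4654, 1693, 2254 and 2225 in FR. Outside VMAT replicates 1 and 2, which stand apart by depth and size factor, its normalized count stayed between 1693 and 4654. SRSF1, the first SR protein to be described, was at 112 to 866 in VIM, 358 to 641 in VMAT and 248 to 755 in FR. SRSF4 was at 17.2, 699, 2.41 and 1.96 in VIM, 6.22, 108.3 and 2.36 in VMAT, and 1.08, 25.2, 399.7, 4.04 and 2.15 in FR. It was above 100 in a single sample of each group, and its coefficient of variation of 207% was the highest of the 65 genes.

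Of the 8 HNRNP genes, 3 were low in no sample: HNRNPA1, HNRNPK and HNRNPL. HNRNPA1 (ENSECAG00000008676), a repressor of exon inclusion, was at 5122, 19033, 12731 and 10936 in VIM, 16406, 4129 and 10354 in VMAT, and 14459, 12995, 11197, 7119.6 and 10781 in FR. It alone accounted for 0.212% to 0.550% of all reads in each sample, and in VIM vs. FR its log2 fold change was -0.03 (95% interval -0.69 to 0.63). HNRNPK had a highest over lowest ratio of 3.70. HNRNPR (ENSECAG00000013733) was at 20.3, 3.26, 1179.8 and 0.978 in VIM, 6.22, 383 and 229 in VMAT, and 903, 240.2, 509, 634 and 241 in FR. It was at 240.2 or more in all FR samples, in VMAT replicate 2 and, among the VIM samples, only in replicate 3. HNRNPA2B1 (ENSECAG00000000782) was at 377, 592, 1279 and 9.78 in VIM, 3.11, 298 and 10.6 in VMAT, and 398, 6.86, 887, 71.6 and 1038 in FR. HNRNPAB was below 10 in 7 samples, and HNRNPU ran from 5.39 in FR replicate 1 to 1684 in VMAT replicate 1.

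**Figure D3:**
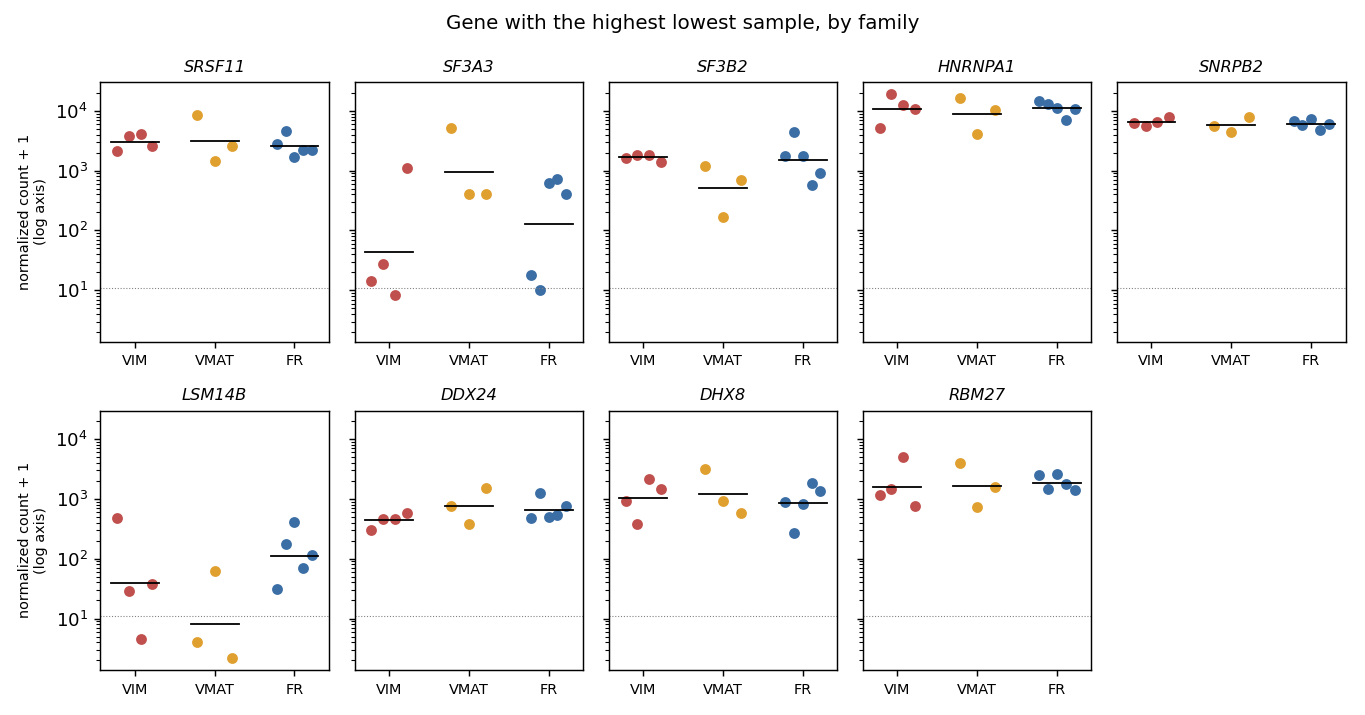
For 9 of the 10 families, the gene whose lowest sample was highest, as normalized count + 1 on a log axis, 1 point per sample; black bars are means of the log values and the dotted line marks a normalized count of 10. SNRPB2 stays between 4432 and 7915 in all samples, whereas SF3A3 and LSM14B, the best of their families, still drop to 7.23 and 1.18.

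LSM14B (ENSECAG00000010659), a protein of the cytoplasmic particles that hold stored maternal mRNA in oocytes, was the only LSM gene with a name. Its normalized counts were 482, 27.7, 3.62 and 36.2 in VIM, 3.11, 60.6 and 1.18 in VMAT, and 30.2, 174, 417, 67.6 and 114 in FR. The VMAT values below 10 were 1 read each, and VMAT replicate 2, with 484 reads, lay within the FR range.

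Among the helicases of the spliceosome, DHX8 (ENSECAG00000019601), which releases the spliced mRNA, was low in no sample. It was at 938, 383, 2122 and 1451 in VIM, 3196, 914 and 571 in VMAT, and 902, 263, 830.2, 1857 and 1349 in FR. DHX16, which activates the spliceosome for the first step, was at 287, 1.63, 0 and 0 in VIM, 59.1, 47.0 and 4.72 in VMAT, and 389, 84.6, 67.7, 1.51 and 249 in FR. Only VIM replicate 1 held more than 1 read of it among the VIM pools. DDX23 (ENSECAG00000016681), the U5 helicase that exchanges U1 for U6, was at 38.1, 4.89, 6.03 and 453 in VIM, 1136, 429 and 3.54 in VMAT, and 425, 6.86, 666, 453 and 671 in FR. All groups held samples below 10. DDX42, which works with SF3B1, was low only in VIM replicate 4, at 2.93, and was at 220.0 to 1419 in the others.

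The other helicases act mostly outside the spliceosome. Of the 14 DDX genes, only DDX24 and DDX52 were low in no sample. DDX24 (ENSECAG00000008887), a nucleolar helicase, was at 298, 466, 464 and 583 in VIM, 753, 374 and 1508 in VMAT, and 479, 1278, 494, 528 and 759.5 in FR. DDX27 (ENSECAG00000020963), which processes ribosomal RNA, was at 382, 3.26, 2.41 and 3.91 in VIM, 0, 172 and 4.72 in VMAT, and 8.63, 1595, 518, 582 and 431 in FR. It was above 100 in 1 of 4 VIM, 1 of 3 VMAT and 4 of 5 FR samples. DDX17, a cofactor of splicing and of microRNA processing, had the widest log2 range of all 65 genes. It was at 260.3, 2011, 101 and 0 in VIM, 87.1, 34.2 and 40.1 in VMAT, and 606, 371, 177, 32.8 and 411 in FR. DDX20, the helicase of the SMN complex that loads Sm rings, was below 10 in VIM replicates 2 and 3 and in FR replicate 2. DHX30 (ENSECAG00000015670), needed for mitochondrial ribosomes, was at 1.23, 8.15, 3.62 and 3.91 in VIM, 146, 52.5 and 248 in VMAT, and 303, 2.29, 369, 463 and 1.43 in FR. All VIM samples held 2 to 5 reads of it, and so did 2 FR samples with 2 reads each. DHX29, a helicase of translation initiation, was low only in FR replicate 3, at 6.16.

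Of the 11 RBM genes, 6 were low in no sample. RBM27 (ENSECAG00000000883) was at 1143, 1478, 5105 and 766 in VIM, 4024, 728 and 1585 in VMAT, and 2506, 1452, 2572, 1740.0 and 1390.2 in FR. RBM22 (ENSECAG00000014940), which contacts U6 snRNA in the active spliceosome, was at 54.0, 27.7, 77.1 and 599 in VIM, 15.6, 429 and 56.6 in VMAT, and 63.6, 936, 1537, 963 and 450.3 in FR. It was under 100 in 3 of 4 VIM, 2 of 3 VMAT and 1 of 5 FR samples. RBM28, a nucleolar protein, ran from 0.560 in FR replicate 3 to 1251 in VMAT replicate 1, a ratio of 2234 that rests on 1 read in the lowest sample. RBM44 (ENSECAG00000004979), known from germ cells, was at 0.614, 3.26, 1.21 and 1.96 in VIM, 74.7, 85.8 and 3.54 in VMAT, and 506, 430.1, 1.68, 0.505 and 0.716 in FR. RBM8A, a core protein of the exon junction complex, was below 10 in 8 samples.

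In VIM vs. FR, 0 of the 65 genes were called differentially expressed with limma on log2(normalized count + 1), and 0% of all 7351 genes tested were called. A call took an adjusted p (Benjamini-Hochberg, over all genes tested) not above 0.05 together with a log2 fold change of 1 or more in size. At an unadjusted p under 0.05 there were 3 genes, all lower in VIM, against 3.78% of all genes tested in either direction, 2.12% higher and 1.66% lower. They were HNRNPR, DDX27 and SF3B1, and RBM22 and DDX23 followed. HNRNPR averaged 301 ± 586 over the VIM samples (SD, n = 4) against 506 ± 281 over the FR samples (SD, n = 5), and its log2 fold change was -4.37 with a standard error of 1.70 and a limma adjusted p of 0.902. DDX27 averaged 98.0 ± 189.6 against 627 ± 585, with a log2 fold change of -4.49 (standard error 1.91). SF3B1 averaged 408 ± 296 against 1209 ± 494. The log2 fold change of SF3B1 was -1.92 (standard error 0.87), and the exact two-sided permutation p was 0.0159, the smallest among the 65 genes and not adjusted for their number. The log2 fold change was -2.50 (standard error 1.27) for RBM22 and -2.99 (standard error 1.78) for DDX23. Leaving out any single sample, the values were -6.30 (without VIM replicate 3) to -3.22 for HNRNPR, -6.12 to -3.85 for DDX27, -2.38 to -1.20 (without VIM replicate 2) for SF3B1, -3.40 to -1.94 for RBM22 and -4.31 to -2.22 for DDX23. On the recovered reads the log2 fold changes of HNRNPR, DDX27, SF3B1, RBM22 and DDX23 were -0.88, -2.58, -1.57, -2.14 and -1.90 with edgeR and -0.77, -2.71, -1.60, -2.07 and -1.85 with DESeq2. For patchy genes such as HNRNPR, near absence from some pools weighs more on the log scale than in the mean count. None of these differences passed the test over all genes. VIM and FR overlapped for all 65 genes, whereas they did not for 1.59% of the genes tested (0.952% higher and 0.639% lower in VIM).

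Other count tests on the recovered reads made different calls. In VIM vs. FR, edgeR called 0 of the 65 genes and 0% of all genes, and DESeq2 called 2 of the 65 and 6.87% of all genes (2.35% higher and 4.52% lower in VIM). The 2 genes were DHX30 (log2 fold change -5.76, DESeq2 adjusted p = 0.00692) and RBM44 (log2 fold change -6.79, DESeq2 adjusted p = 0.00727), both lower in VIM. RBM44 held 1 or 2 reads in the VIM samples but also 1 to 3 reads in 3 of 5 FR samples, and its FR mean of 188 ± 257 (SD, n = 5) came from FR replicates 1 and 2. DHX30 likewise had 2 reads in 2 of 5 FR samples. With limma the log2 fold changes were -3.51 (standard error 2.33) for DHX30 and -2.73 (standard error 2.25) for RBM44. With so few reads in VIM, the size of these fold changes depends on the pseudocount.

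**Figure D4:**
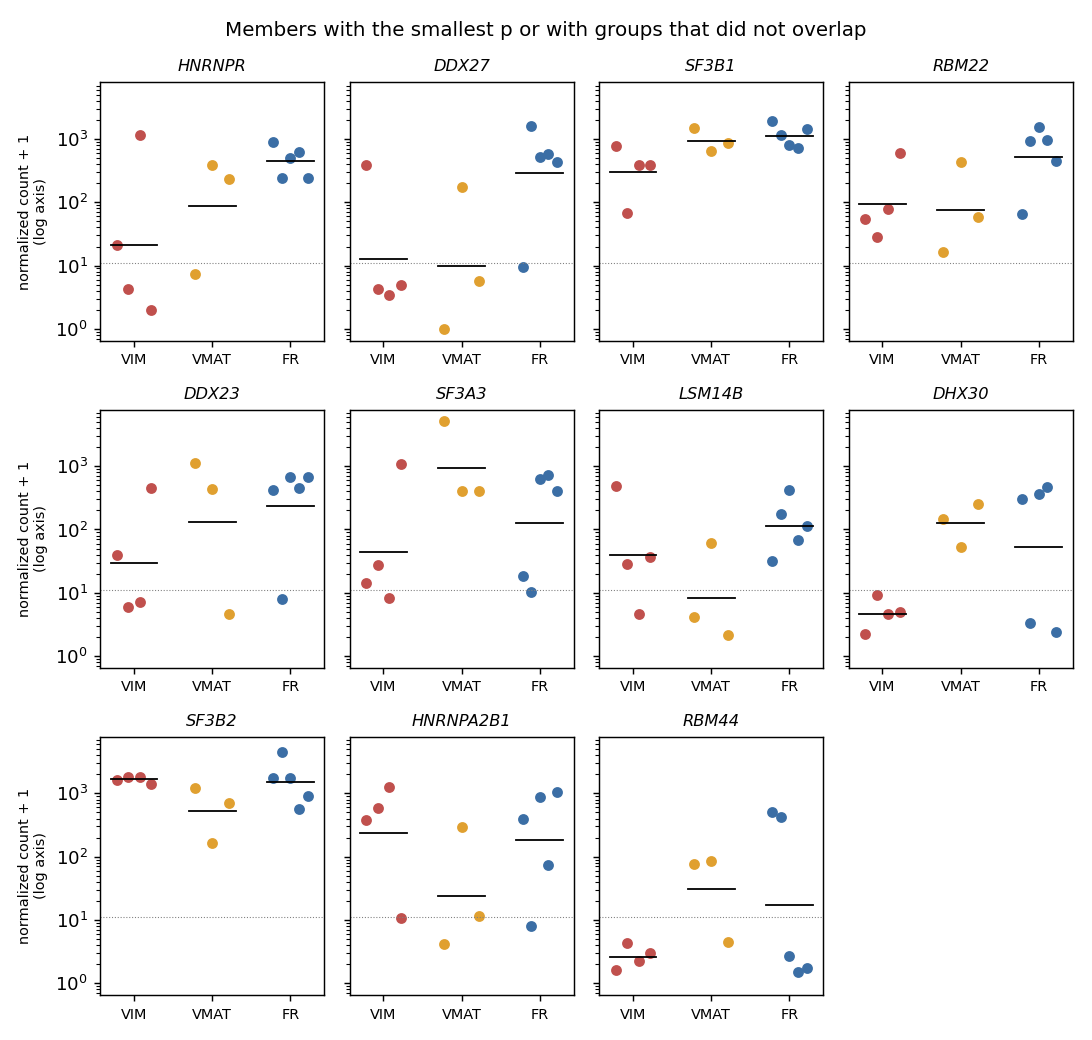
The 11 genes with the smallest p of a comparison or with groups that did not overlap, as normalized count + 1 on a log axis, 1 point per sample; black bars are means of the log values and the dotted line marks a normalized count of 10. SF3B2 in VIM sits above all VMAT samples, DHX30 and RBM44 in VIM sit below them, and for the other genes at least 1 sample lies in the range of the other group.

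In VMAT vs. FR, limma called 0 of the 65 genes and 0% of the 8305 genes tested. An unadjusted p under 0.05 was reached by 1 gene, against 3.62% of all genes in either direction, 2.41% higher and 1.22% lower. It was DDX27, lower in VMAT, with an average of 58.9 ± 97.9 over the VMAT samples (SD, n = 3) and 627 ± 585 over the FR samples (SD, n = 5). The log2 fold change was -4.86 with a 95% interval of -8.92 to -0.80 and a limma adjusted p of 0.950. RBM22 followed with -2.82 (standard error 1.45), SF3A3 with 2.89 (standard error 1.53), LSM14B with -3.78 (standard error 2.12) and HNRNPR with -2.36 (standard error 1.45). LSM14B averaged 21.6 ± 33.8 over the VMAT and 161 ± 153 over the FR samples. Its exact two-sided permutation p of 0.0357 was the smallest among the 65 genes, not adjusted for their number, although VMAT replicate 2 overlapped with FR. Without VMAT replicate 1 the log2 fold changes of DDX27, RBM22, SF3A3, LSM14B and HNRNPR were -3.20, -1.74, 1.67, -3.28 and -0.58, and without VMAT replicate 2 they were -6.92, -4.09, 3.49, -5.23 and -3.44. No gene of the 65 had groups that did not overlap, against 3.19% of the genes tested (1.96% higher and 1.23% lower in VMAT). On the recovered reads, edgeR called 0 of the 65 genes and 0.012% of all genes, and DESeq2 called 0 of the 65 and 4.26% of all genes (2.17% higher and 2.1% lower in VMAT).

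VIM vs. FR and VMAT vs. FR share the FR samples, so their fold changes are given side by side only. For DDX27 they were -4.49 and -4.86, for RBM22 -2.50 and -2.82, for HNRNPR -4.37 and -2.36, for SF3B1 -1.92 and -0.26, and for SF3A3 -1.56 and 2.89. The median log2 fold change of the 65 genes was -0.54 for VIM and -0.33 for VMAT. For comparison, it was -0.27 and -0.31 over all genes with a name, and -0.12 and 0.01 over all genes tested. In each of the comparisons 22 genes had a positive and 43 a negative fold change, and the choice of names favours negative values. For VIM the split was 31 positive and 34 negative with edgeR, with a median of -0.067, and 33 positive and 32 negative with DESeq2, with a median of 0.027. For VMAT it was 21 positive and 44 negative with edgeR and 27 positive and 38 negative with DESeq2. The DDX genes had 12 of 14 negative values for VIM, with a median of -1.24, and 10 of 14 for VMAT, with a median of -0.84. With edgeR the DDX genes were 7 positive and 7 negative for VIM and 4 and 10 for VMAT, and with DESeq2 they were 7 and 7 in each. The SNRP genes were at a median of 0.10 and -0.29, the SRSF genes at 0.25 and 0.11, the HNRNP genes at -0.55 and -1.05 and the PRPF genes at -0.85 and -0.60. The SNRP genes were 5 positive and 4 negative for VIM with limma, but 8 and 1 with edgeR and with DESeq2. For VMAT they were 2 and 7 with limma and 4 and 5 with edgeR and with DESeq2. None of these family medians or splits was tested.

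**Figure D5:**
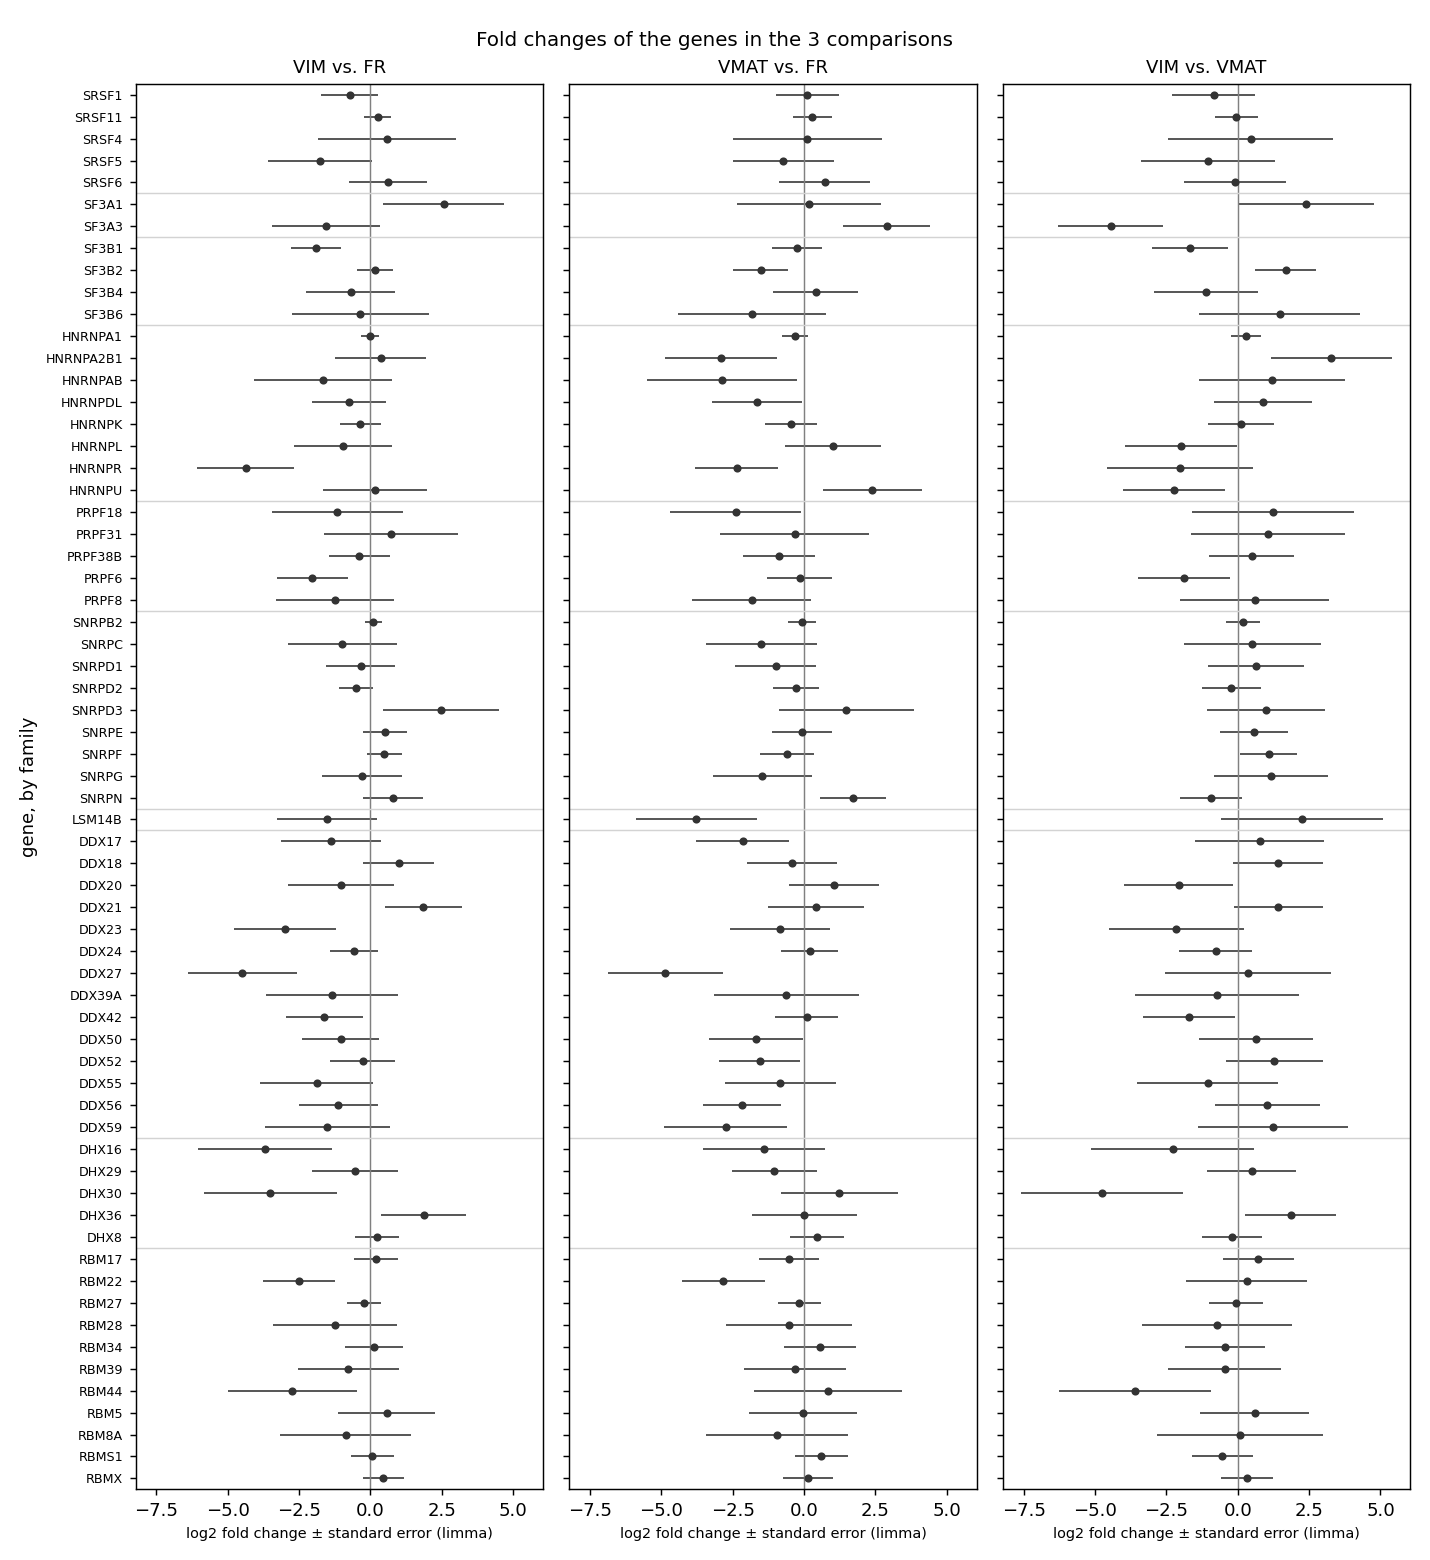
Log2 fold changes from limma (points) with their standard errors (bars) for 64 of the 65 genes, by family, in the 3 comparisons, each in a panel of its own with 1 shared axis. Genes that are even across samples, such as HNRNPA1 and SNRPB2, have short bars close to 0, and patchy genes such as DHX30 (standard error 2.33 in VIM vs. FR) have long ones.

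In VIM vs. VMAT, limma called 0 of the 65 genes and 0% of the 7627 genes tested, and 1 gene had an unadjusted p under 0.05, against 2.98% of all genes, 0.97% higher and 2.01% lower. This gene was SF3A3, lower in VIM, with an average of 286 ± 541 over the VIM samples (SD, n = 4) and 1987 ± 2739 over the VMAT samples (SD, n = 3). The log2 fold change was -4.45, with a standard error of 1.83 and a limma adjusted p of 0.967. Its groups overlapped through VIM replicate 4, and leaving out any single sample, the log2 fold change lay between -6.00 and -3.23. The groups did not overlap for 3 of the 65 genes, 1 higher and 2 lower in VIM, against 4.5% of all genes tested (1.72% higher and 2.78% lower), so this count is near the background. SF3B2 averaged 1683 ± 216 over VIM and 689 ± 517 over VMAT, with a log2 fold change of 1.69 (standard error 1.07). DHX30 averaged 4.23 ± 2.88 against 149 ± 97.6, with a log2 fold change of -4.75 (standard error 2.82). RBM44 averaged 1.76 ± 1.14 against 54.7 ± 44.6, with a log2 fold change of -3.58 (standard error 2.66). For RBM44 the gap was the one between 3.26 in VIM replicate 2 (2 reads) and 3.54 in VMAT replicate 3 (3 reads), which is within counting error. For each of the 3 genes the exact two-sided permutation p was 0.0286, the smallest that 3 and 4 samples allow. The genes were picked for groups that do not overlap, which all but fixes this p, so it adds no support. Without VMAT replicate 1 the log2 fold changes of SF3B2, DHX30 and RBM44 were 2.29, -4.64 and -2.94, and without VMAT replicate 2 they were 0.86, -5.37 and -2.84. HNRNPA2B1 was among the smallest p as well, with a log2 fold change of 3.28 (standard error 2.12) and overlapping groups. On the recovered reads, edgeR called 0 of the 65 genes and 0.0131% of all genes, and DESeq2 called 1 of the 65, DHX30 (log2 fold change -5.16, DESeq2 adjusted p = 0.0326), and 3.87% of all genes (1.68% higher and 2.19% lower in VIM). The median log2 fold change was 0.28 over the 65 genes, 0.02 over genes with a name and -0.08 over all genes tested.

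Other genes of the pathway came from lists of further spliceosome proteins, splicing regulators, snRNP assembly factors, exon junction and decay factors, and proteins of stored maternal mRNA. Of their 50, 33, 15, 14 and 26 genes, 20, 20, 4, 7 and 12 had a name, and limma called 0 of them in each of the 3 comparisons. At an unadjusted p under 0.05 there were 4 genes against FR for VIM, 3 against FR for VMAT and 1 between both vitrified groups, where 3.78%, 3.62% and 2.98% of all genes tested reached it. These genes are named here after their values were seen. No further spliceosome protein and no snRNP assembly factor was among them. SRPK2, a kinase that phosphorylates SR proteins, averaged 4902 ± 1355 over VIM, 6490.4 ± 3731 over VMAT and 2633 ± 1677 over FR. Against FR the log2 difference of SRPK2 was 1.22 (standard error 0.56) for VIM and 1.5 (standard error 0.71) for VMAT. DYRK1A, another kinase of splicing factors, averaged 0.685 ± 0.612 over VMAT and 197 ± 180.1 over FR, with a log2 fold change of -5.65 (standard error 2.48). UPF3B, which links exon junctions to mRNA decay, averaged 1802 ± 522 over VIM and 780.2 ± 625 over FR, with a log2 fold change of 1.67 (standard error 0.79). EIF4ENIF1, which represses the translation of stored mRNA, averaged 2222 ± 966 over VIM, 600.4 ± 491 over VMAT and 927 ± 856 over FR. VIM was higher by a log2 fold change of 2.91 (standard error 1.24) than FR and by one of 2.74 (standard error 1.14) than VMAT. YTHDF2, a reader of N6-methyladenosine that promotes mRNA decay, averaged 66.9 ± 125 over VIM, 82.6 ± 135 over VMAT and 603 ± 332 over FR. Its log2 fold changes against FR were -5.30 (standard error 1.59) and -4.72 (standard error 1.61), with limma adjusted p of 0.902 and 0.950.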

How the data were processed

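RNA-seq libraries (QIAseq UPX 3′) of 12 pools of horse oocytes were analysed. The authors trimmed the reads (Trim Galore), mapped them to EquCab3.0 (STAR), processed unique molecular identifiers (UMI-tools) and counted reads per gene (RSEM). They deposited, as a signal, those counts after division by the DESeq2 size factor of the sample. By the paper, RNA quality control left out pools of VIM and VMAT but none of FR, and 1 further VMAT sample was removed for deviating quality metrics. In each sample all values were whole multiples of a single step (100.0% within 0.01 of a whole number), and this gave whole reads for edgeR and DESeq2. No column was left out. Genes had no positions in the files.

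Each comparison used the samples of its groups and the genes detected in a number of samples no smaller than that of the smaller group. The main test was limma 3.58.1 (eBayes with trend) in R 4.3.3 on log2 values with a pseudocount of 1, fitted over all genes tested; on this scale the change of genes low in every sample is understated, and that of genes almost absent from some pools can exceed the change in their mean count. edgeR 4.0.16 (quasi-likelihood) and DESeq2 1.42.0 were alternatives, with other pseudocounts, filters, scalings and left-out samples. Permutation tests ran over every split of the samples. The tests were tried on simulated data with strong changes and much less spread between samples than seen here. This checked only that such changes were found with the right sign, and not power or false calls in these data. Replicates differed by more than counting noise (lowest chi-square over its degrees of freedom, 166), so no library was counted as a repeat of another; this does not show that pools were independent. The standard errors, intervals and p of limma rest on a spread between samples that eBayes draws towards a trend over all genes tested. They can therefore be wider or narrower than the spread of a gene's own samples. Limits in reads cover counting error only.

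The families, lists and rules were chosen with earlier results of these data known. Genes described in full were the 5 with the smallest limma p of each comparison, the gene of each family with the highest lowest sample and, in families of at least 3 genes, that with the largest log2 range, and every gene whose groups did not overlap (25 genes, of which 1 is not reported here); others are given in part. The study's gene lists also hold fold changes and p-values, which were not used. Figures were made with Python 3.11.15 and matplotlib 3.10.9.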

Additional observations from a re-analysis of the deposited data

Results flagged for a closer look

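For the 25 genes described in full, the reads on genes and the share of reads on the 65 genes, each VIM and FR group was searched for a sample whose gap to the nearest other sample took up most of the range (Dixon's test at 95%). Of 54 groups, 7 held such a sample, against 2.7 expected for normally distributed values of unselected genes, and VMAT with 3 samples was not searched. The genes were picked from the same values, many for a small p or a wide range, so the excess is no result. DDX27 was at 382 in VIM replicate 1, with the other VIM samples at 2.41 to 3.91, and at 8.63 in FR replicate 1, with the other FR samples at 431 to 1595. DDX23 was at 6.86 in FR replicate 2 and at 425 to 671 in the other FR samples. SF3B4 was at 3.62 in VIM replicate 3 and at 264 to 416 in the other VIM samples. DHX16 was at 287 in VIM replicate 1 and at 0 to 1.63 in the other VIM samples. The share of reads on the 65 genes was 1.80% in VIM replicate 2, against 1.94% to 1.96% in the other VIM samples, and 2.43% in FR replicate 3, against 2.08% to 2.14% in the other FR samples.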

How the results depend on the processing

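With limma, 0 of the 65 genes were called in the 3 comparisons, and this held for other pseudocounts (0.5 and 10), filters, scalings, 1 fit of all 12 samples, eBayes without trend, each sample left out in turn and edgeR. DESeq2 called 2 genes in VIM vs. FR, 1 in VIM vs. VMAT (DHX30, log2 fold change -5.16) and 0 in VMAT vs. FR; the cause was not tested. Over all genes DESeq2 called 505, 354 and 295 genes and edgeR 0, 1 and 1 (VIM against FR, VMAT against FR, VIM against VMAT), where limma as described called 0. Without trend, limma called 3 genes in VIM vs. FR, none of the 65. The paper, with DESeq2 at the same thresholds, reports far fewer genes in each comparison than DESeq2 called here, and the cause of that gap was not tested. The median log2 fold change of the 65 genes in VIM vs. FR, -0.54, was -0.067 with edgeR and 0.027 with DESeq2, and -0.31 over the 16 genes that the gene set file names, an alternative chosen after seeing the data. With samples left out it was -0.69 to -0.34 in VIM vs. FR, -0.64 to -0.20 in VMAT vs. FR and -0.18 to 0.20 in VIM vs. VMAT, where it was lowest without VMAT replicate 3 and also below 0 without VMAT replicate 1 (-0.018) and with quantile normalization (-0.060), against 0.28. With equal column totals the median of all genes in VIM vs. VMAT moved from -0.08 to -0.19 and that of the 65 genes to 0.12, and with quantile normalization that of all genes was 0.05. No single gene named for a small p or for groups that did not overlap changed direction. With equal column totals, 22 in place of 25 genes were at 10 or more in all samples. Same-numbered samples did not deviate together (correlation -0.03 to 0.01), and neither did differently numbered ones (-0.03 to 0.05). With every correlation near 0, this cannot show whether same-numbered pools shared a session, so pairing is unknown. With the replicate block 0 genes were called in each comparison and the medians were -0.38, -0.26 and 0.02. The alternative with names from a reference table was not run, since that table holds no Ensembl identifiers. In VMAT replicate 1, 17 of the 65 genes were at or under 3 reads, so for those genes that sample cannot tell a low level from absence.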
